A study of Mus musculus with 7 samples.

Results

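The genes described here are those of mouse chromosome 12 that start at or beyond 80 Mb (mm10) and were read deeply enough to split their RNA between the parental genomes. Of 22556 genes in the files, 712 lay on chromosome 12 and 349 of these started at or beyond 80 Mb. Of the 349, Esrrb and Fos were left out, as were 15 genes of a window around the imprinted genes Meg3, Rian and Mirg (starts from 108536401 to 109734980). A further 156 had fewer than 50 allelic fragments in at least 1 library, 64 of them with no allelic fragment in at least 1 library. The remaining 176 genes are called the members. The stretch was chosen by its measured allelic counts, in which the Cast genome was over-represented in both lines, and the members were selected on their number of allelic fragments. RefSeq lists 169 of them as protein coding, 5 as long non-coding RNA and 2 as transcribed pseudogenes.

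ChrRNA-seq reads the RNA bound to chromatin, here of female mouse embryonic stem cells (mESCs) kept undifferentiated, which are F1 hybrids with a 129/Sv genome (Dom, for Mus musculus domesticus) and a CAST/EiJ genome (Cast). A doxycycline-inducible TetO promoter drives Xist from the Dom X chromosome of the line iXist-ChrX-Dom (n = 4 libraries) and from the Cast X chromosome of the line iXist-ChrX-Cast (n = 3). All 7 libraries came from cells given 1 µg/mL doxycycline for 10 days, both lines descend from the same F1 parental line, and no uninduced cells were analysed here. Each line is a clone, so a difference between the lines is one between clones, and cells were grown on mouse fibroblast feeders that were removed by pre-plating. Replicates 3 and 4 of iXist-ChrX-Dom are described as d1 but titled and treated as 10 days, which was followed, and replicates 1 and 2 of iXist-ChrX-Cast have file names with another clone name than their labels. The study calls the iXist-ChrX-Dom libraries replicate experiments, but neither its text nor the labels say whether replicates came from separate cultures, so p-values measure the spread between these libraries, which may be technical.

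In hybrid cells, polymorphisms between the parental genomes let a read be assigned to the chromosome it came from. Most autosomal genes are read from both chromosomes, and the share of one genome departs from equality where a regulatory variant acts in cis, where a gene is imprinted, where the chromosomes differ in copy number, or where reads of one strain align less readily to the reference. ChrRNA-seq captures nascent transcripts with their introns, so many polymorphisms contribute to each gene. Xist RNA acts in cis, on the X chromosome that makes it.

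The Cast share of a gene was the percentage of its allelic fragments that were assigned to Cast. Libraries held 14877384 to 24309806 counted fragments, of which 44.2% to 46.4% were allelic, and the members held 2.48% to 2.76% of the counted fragments. The median member had 388 to 744 allelic fragments in a library. The 95% Wilson interval of its share, which covers counting error only, reached a median of 3.55 percentage points to either side, and the median SD of a share over libraries was 1.72 points in iXist-ChrX-Dom versus 1.70 in iXist-ChrX-Cast. All 7 mESC markers were detected in every library, and their summed level was 1190 to 1555 CPM (a gene's fragments over those of its library, scaled to a common total). The 7 feeder fibroblast markers summed to 53.8 to 72.9, with at most 1 of them at 0 in a library, and the 5 neural precursor markers summed to 15.6 to 45.6, with 1 to 3 of them at 0.

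The Cast share of the members stood far above equality in both lines. Replicates 1 to 4 of iXist-ChrX-Dom had a median over the members of 71.0%, 71.7%, 71.7% and 71.0%, and replicates 1 to 3 of iXist-ChrX-Cast had 71.6%, 71.0% and 71.9%. The lines thus overlapped, with 71.3% ± 0.399 (SD, n = 4) in iXist-ChrX-Dom versus 71.5% ± 0.469 (SD, n = 3) in iXist-ChrX-Cast. Replicates 1 and 2, whose file names are built differently from those of the higher-numbered replicates, gave 71.3% in both lines when taken alone. The stretch of chromosome was singled out for these values, so they are given as a description and were not tested.

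As a reference, the balanced autosomes (14 autosomes, all but 1, 5, 8, 12 and 14, with 6435 genes) had a median of 46.8% ± 0.156 (SD, n = 4) and 46.7% ± 0.289 (SD, n = 3). Their departure from 50% is called the allele bias here. Its sources were not tested, and alignment and true differences in expression cannot be told apart in it. A raised Cast share was not particular to the members. Of the chromosomes left out of this reference, chromosome 5 had a median of 46.0% in iXist-ChrX-Dom versus 63.6% in iXist-ChrX-Cast. Chromosome 8 had 63.7% versus 46.8%, so each was raised in 1 line only. On the scale of log2 odds (Cast over Dom), the members stood 1.49 above the balanced autosomes in iXist-ChrX-Dom and 1.51 above them in iXist-ChrX-Cast, which is 2.82 and 2.86 times the odds. Shifting each library by its allele bias placed the median of the members at 73.8% and 74.1%. Summed over the members, Cast-assigned fragments numbered 2.45 to 2.53 for each Dom-assigned fragment in the 4 libraries of iXist-ChrX-Dom, and 2.49 to 2.56 in the 3 of iXist-ChrX-Cast. No library of cells without the raised share was analysed, so whether Cast RNA is higher or Dom RNA is lower than in other cells cannot be told apart.

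**Figure D1:**
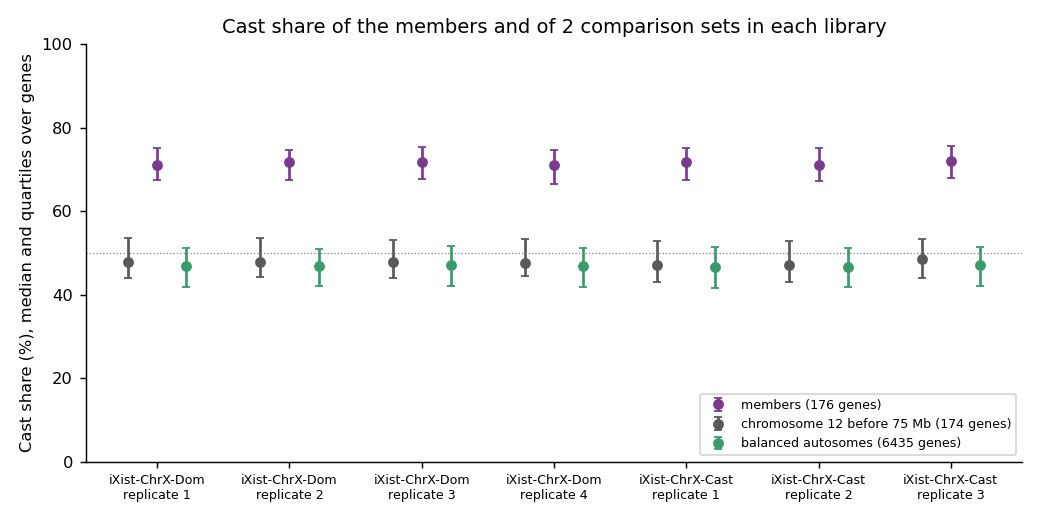
Median Cast share over genes (points, percent) with the lower and upper quartiles (bars) in each of the 7 libraries, for the 176 members, for the 174 chromosome 12 genes that start before 75 Mb and for 6435 genes of the balanced autosomes. The members sit between 71.0% and 71.9% in every library, above both comparison sets, whose medians lie between 46.5% and 48.5%.

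The raised share was common to nearly all members and was not carried by a few deeply read ones. In all 7 libraries 165 of the 176 members were above 50%, and for 154 the lower end of the Wilson interval was above 50% in every library. By the mean over the 7 libraries, 152 members lay from 60% to 80%, 6 above 80%, 8 from 50% to 60%, and 10 below 50%. The lower and upper quartiles of the members were 68.0% and 74.7% in iXist-ChrX-Dom versus 67.9% and 75.2% in iXist-ChrX-Cast. Across the members, the mean share was weakly related to the number of allelic fragments (Spearman correlation 0.151), to gene length (-0.0756) and to the start of the gene (0.0332). These are descriptions across 176 genes of the same libraries, and genes are not independent replicates.

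The members differed from each other about as much as genes elsewhere did. The median absolute deviation of the members' mean log2 odds from their median was 0.24 in iXist-ChrX-Dom versus 0.26 in iXist-ChrX-Cast, against 0.24 and 0.25 for the balanced autosomes and 0.23 and 0.27 for chromosome 12 before 75 Mb. More than 1 log2 unit below their own median lay 6.25% of the members in each line, against 4.77% and 5.05% of the balanced autosomal genes. The order of the members was alike in both lines, with a Pearson correlation of their mean log2 odds of 0.965 and a Spearman correlation of 0.916 (176 genes that share polymorphisms and reference sequence in both lines). The same correlations were 0.957 and 0.941 over the 174 chromosome 12 genes before 75 Mb, so the likeness between lines was not particular to the members. For 164 of the 176 members the mean share of the lines differed by at most 5 points.

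Along the chromosome, the share changed from near equality to the level of the members in a single step that lay before the limit of 80 Mb. In blocks of 5 Mb, the medians up to 75 Mb ran from 45.0% to 52.6% in iXist-ChrX-Dom and from 42.4% to 52.2% in iXist-ChrX-Cast. In the block from 75 to 80 Mb, whose 25 genes are no members, the medians were already 70.8% ± 1.11 (SD, n = 4) and 71.1% ± 0.579 (SD, n = 3). The blocks of members from 80 Mb to the end of the chromosome ran from 66.9% to 74.7% and from 67.5% to 73.7%, lowest in both lines in the block from 90 to 95 Mb, which held 4 members. The highest was the block from 95 to 100 Mb with 10 members, and the last block, from 115 Mb on, was at 73.0% and 71.7% with 12 members. No gradient towards the end of the chromosome was seen.

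The step was placed by the nearest genes on either side that passed the depth limit. Snapc1, a subunit of the complex that drives small nuclear RNA transcription (chr12:73964529-73984820), had a share of 52.4% in iXist-ChrX-Dom versus 50.3% in iXist-ChrX-Cast. It was shallow, with as few as 53 allelic fragments in a library. Hif1a, the oxygen-regulated transcription factor just before it, had 48.2% and 50.2%. Ppp2r5e, a regulatory subunit of protein phosphatase 2A (chr12:75450880-75596200), had 71.6% and 72.1% with at least 802 allelic fragments in each library. The next gene, Wdr89, had 71.9% and 71.0%.

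Between Snapc1 and Ppp2r5e lay 5 genes with allelic fragments but fewer than 50 in at least 1 library, and their fragments were pooled over the 7 libraries as a description chosen after the step had been seen. Syt16, a synaptotagmin family gene (chr12:73997760-74267916), gave 51 Cast fragments of 116, or 44.0% (95% Wilson interval 35.3% to 53.1%). Kcnh5, a voltage-gated potassium channel gene (chr12:74897216-75177332), gave 238 of 334, or 71.3% (66.2% to 75.9%). Rhoj (chr12:75308312-75401455) gave 132 of 231, or 57.1% (50.7% to 63.4%), between the levels on either side. The other two, 1700086L19Rik and Gphb5, had 3 and 2 allelic fragments. By these counts the share was already raised at Kcnh5, but Rhoj beyond it was lower and Kcnh5 had as few as 27 fragments in a library. Single genes can also stand apart from their surroundings. Before 75 Mb, 15 genes of chromosome 12 were above 60% in at least 1 line, such as Taf1b at 73.2% and 70.1%. The rise is therefore placed only between Snapc1 and Ppp2r5e.

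**Figure D2:**
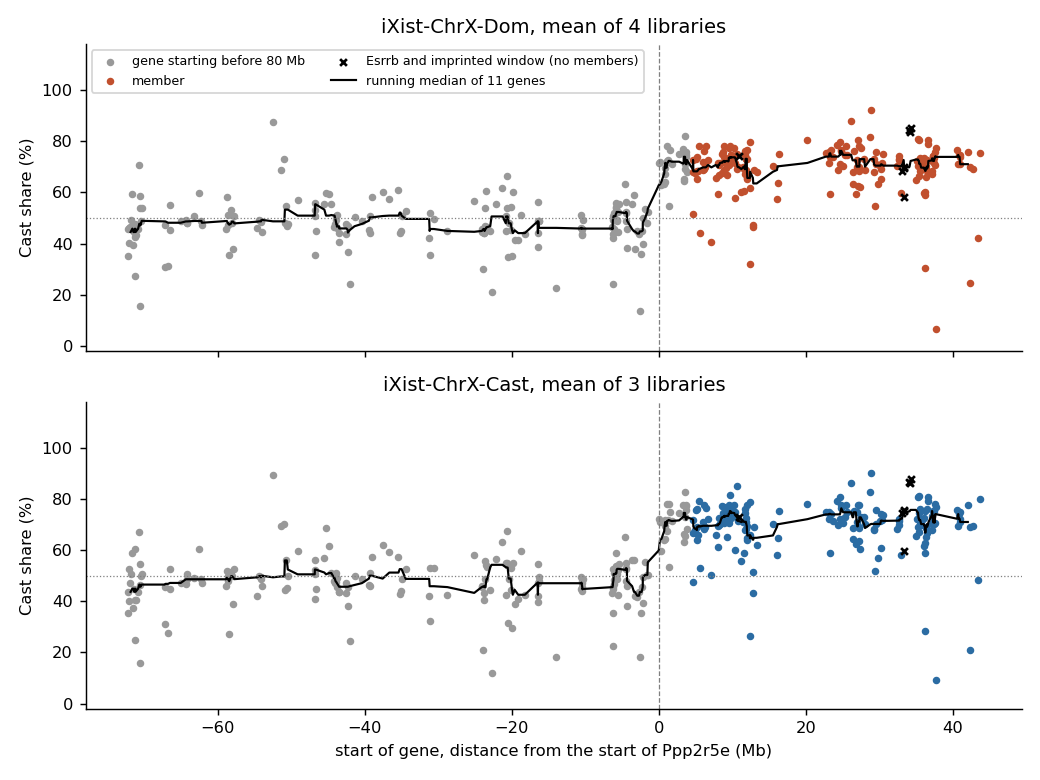
Mean Cast share (percent) of each chromosome 12 gene with at least 50 allelic fragments in every library, against the distance of its start from the start of Ppp2r5e (Mb), in iXist-ChrX-Dom (upper panel) and iXist-ChrX-Cast (lower panel). Grey points start before 80 Mb, coloured points are members, crosses are Esrrb and genes of the imprinted window, and the line is a running median of 11 genes, which smooths over the step; the level changes near distance 0 in both lines and stays up to the end of the chromosome.

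The limits of the membership rule did not fall on a change of level. The members nearest to 80 Mb were Zfp36l1, which codes for an RNA-binding protein that promotes mRNA decay (72.7% in iXist-ChrX-Dom versus 71.9% in iXist-ChrX-Cast), the long non-coding RNA gene 2310015A10Rik (51.6% and 47.7%) and Actn1, the gene of an actin cross-linking protein (67.8% and 66.7%). The genes just outside were Rad51b, a homologous recombination gene (68.0% and 68.4%), Zfyve26 (74.8% and 75.5%) and Rdh11, a retinol dehydrogenase gene (73.9% and 77.2%). At the depth limit, Tmem63c and Ankrd9, both with 51 fragments in their shallowest library, had 60.5% and 73.3% in iXist-ChrX-Dom, and Jdp2 and Ccdc176, left out with 49 and 48, had 56.1% and 66.3%.

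The left-out genes had raised shares too. Esrrb, a pluripotency transcription factor gene (chr12:86361116-86521628), had 74.2% ± 0.635 (SD, n = 4) and 72.9% ± 1.07 (SD, n = 3), and Fos, an immediate early gene with as few as 10 allelic fragments in a library, had 67.1% ± 9.39 and 72.6% ± 2.15. In the imprinted window 7 genes had 50 fragments in every library. Evl, Wars and Wdr25 were at 68.2% to 69.8% in iXist-ChrX-Dom versus 74.5% to 75.7% in iXist-ChrX-Cast, and Yy1 was at 58.3% and 59.8%. The non-coding RNA genes Meg3, Rian and Mirg, which are imprinted and read from the maternal chromosome, were higher, at 83.5% to 85.4% and 86.0% to 87.7%.

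Against this level, 10 members had a mean share below 50% in at least 1 line, 9 in iXist-ChrX-Dom versus 7 in iXist-ChrX-Cast, with 6 in both. Of these, 4 were below 50% in all 7 libraries and the rest straddled it. The members on either side of an exception were at the common level in most cases, and the exceptions were single genes apart from 1 run of gene copies.

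Crip2, which codes for a LIM domain protein (chr12:113140235-113145506, + strand), had the lowest share of all members. It was 5.11%, 8.45%, 7.69% and 5.20% in iXist-ChrX-Dom versus 8.70%, 12.1% and 7.51% in iXist-ChrX-Cast, so nearly all its allelic fragments were assigned to Dom in every library. It had 69 to 173 allelic fragments per library. Its neighbours among the members, Mta1 and 4930427A07Rik, had 70.6% and 77.1% over the 7 libraries.

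Dnah11, a gene for an axonemal dynein heavy chain that moves cilia (chr12:117877981-118199043, - strand), had 27.5%, 28.9%, 21.1% and 21.2% in iXist-ChrX-Dom versus 27.7%, 22.1% and 13.5% in iXist-ChrX-Cast. All 7 libraries were low, and the lines overlapped. Part of its span is shared with Cdca7l on the opposite strand, which had 69.6%, and the reads were counted by strand.

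Ckb, the brain-type creatine kinase that buffers ATP (chr12:111669354-111672338, - strand), was the deepest of the 4 that were low in every library, with 258 to 1006 allelic fragments. Its share was 28.0%, 35.3%, 29.2% and 28.9% in iXist-ChrX-Dom versus 29.8%, 29.5% and 26.3% in iXist-ChrX-Cast. The lines overlapped, and replicate 2 of iXist-ChrX-Dom was the highest. Mark3 before it and Trmt61a after it had 73.0% and 61.2%.

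The fourth, Gm2016 (chr12:87874071-87877859, + strand), belongs to a run of gene copies that code for proteins like eIF1A, the initiation factor that helps the ribosome scan to the start codon. Its share was 29.0%, 40.7%, 32.1% and 26.2% in iXist-ChrX-Dom versus 22.1%, 28.4% and 28.7% in iXist-ChrX-Cast. The copies are so alike that reads can fail to tell them apart, which is shown by the first 81 coding bases, the length of 1 read, of the copies whose coding start the annotation gives (GENCODE vM21, GRCm38). Capitals mark the bases that differ from Gm2016.
Gm2016: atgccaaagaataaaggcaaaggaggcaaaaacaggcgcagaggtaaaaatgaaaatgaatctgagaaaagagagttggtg
Gm2022: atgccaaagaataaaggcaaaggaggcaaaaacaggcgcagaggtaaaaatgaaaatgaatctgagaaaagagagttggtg
Gm5662: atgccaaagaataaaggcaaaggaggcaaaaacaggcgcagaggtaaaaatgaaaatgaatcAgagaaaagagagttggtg
Gm8300: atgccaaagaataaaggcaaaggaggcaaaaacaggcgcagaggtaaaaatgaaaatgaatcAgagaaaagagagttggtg
Gm5039: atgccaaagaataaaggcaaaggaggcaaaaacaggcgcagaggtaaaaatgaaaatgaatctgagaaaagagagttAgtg
Gm2022 matched Gm2016 in all 81 bases, Gm5662 and Gm8300 carried the same change T63A, and Gm5039 carried G78A, with positions counted from 1 at the first base of the start codon and the base of Gm2016 written first.

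Over the whole annotated transcripts, 68.8% of the stretches of 81 bases of Gm2016 occurred unchanged in another of these copies. The figure was 62.4% for Gm5662, 61.4% for Gm2022, 11.9% for Gm8300, 3.83% for Gm5039 and 0.0% for Gm1995. A read that lies wholly in such a stretch cannot by itself be placed on 1 copy. Reads came in pairs, so a mate outside the stretch can place a fragment, and only uniquely aligned fragments were kept. The shares of Gm2016, Gm5662 and Gm2022 thus rest on the fragments that could be placed. They are uncertain to an extent that was not tested. Gm8300 and Gm5039 hold fewer such stretches, and none was found in Gm1995. Only these copies and the like gene BB287469 were compared with each other. Matches elsewhere in the genome were not examined, so the shares of Gm8300, Gm5039 and Gm1995 can be uncertain too. Gm1995 had 79.7% in iXist-ChrX-Dom versus 78.7% in iXist-ChrX-Cast, Gm8300 65.7% and 64.0%, Gm2022 61.6% and 65.7%, Gm5662 47.3% and 51.3%, and Gm5039 46.7% and 43.2%. The members of this run account for 3 of the 10 exceptions, and the next member, Adck1, was at 68.9% over the 7 libraries.

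The remaining exceptions lay nearer to equality. Abcb5, which codes for an ABC transporter (chr12:118867823-118966421), had 39.3%, 39.2%, 45.5% and 45.6% in iXist-ChrX-Dom versus 50.3%, 43.2% and 51.3% in iXist-ChrX-Cast, in 358 to 759 fragments. The lines overlapped, and each numbered library of iXist-ChrX-Cast was above the same-numbered one of iXist-ChrX-Dom. The log2 difference of the Cast to Dom odds, iXist-ChrX-Dom minus iXist-ChrX-Cast, did not pass the test over all 7 libraries (-0.32, edgeR adjusted p = 0.117). It passed without iXist-ChrX-Cast replicate 2 (-0.48, edgeR adjusted p = 0.0261) and within replicates 1 and 2 alone (-0.42, edgeR adjusted p = 0.0495). The difference also passed with a covariate that sets those replicates apart (-0.38, edgeR adjusted p = 0.0112). With the replicate number as a block it passed too (-0.40, edgeR adjusted p = 0.0168). It did not pass with limma (-0.34, limma adjusted p = 0.109) or DESeq2 (-0.33, DESeq2 adjusted p = 0.318). Nor did it pass without any other single library (edgeR adjusted p = 0.068 to 0.372). The long non-coding RNA gene 2310015A10Rik (chr12:80120545-80132844) had 47.7% to 56.7% in iXist-ChrX-Dom versus 46.6% to 49.8% in iXist-ChrX-Cast, and in 6 of 7 libraries its Wilson interval held 50%. Rgs6 and Smoc1, which differed between the lines, are described with that comparison.

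At the other end, the highest members were Serpina3m (chr12:104387163-104394257) and Tc2n (chr12:101645445-101718523). Serpina3m, a serine protease inhibitor gene of a family of close copies whose reads may be shared, had 91.8%, 90.2%, 92.8% and 93.8% in iXist-ChrX-Dom versus 88.3%, 90.0% and 91.7% in iXist-ChrX-Cast. Tc2n, which codes for a protein with C2 domains, had 84.9% to 91.0% and 85.3% to 86.8%. Both stood above 80% in every library. They were followed by Serpina3i (81.9% and 82.7%), the cytosolic chaperone gene Hsp90aa1 (81.02% and 80.9%, in 6663 to 12557 fragments), the protein kinase gene Mok (80.5% and 81.3%) and the proteasome ATPase gene Psmc1 (79.6% and 80.7%).

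**Figure D3:**
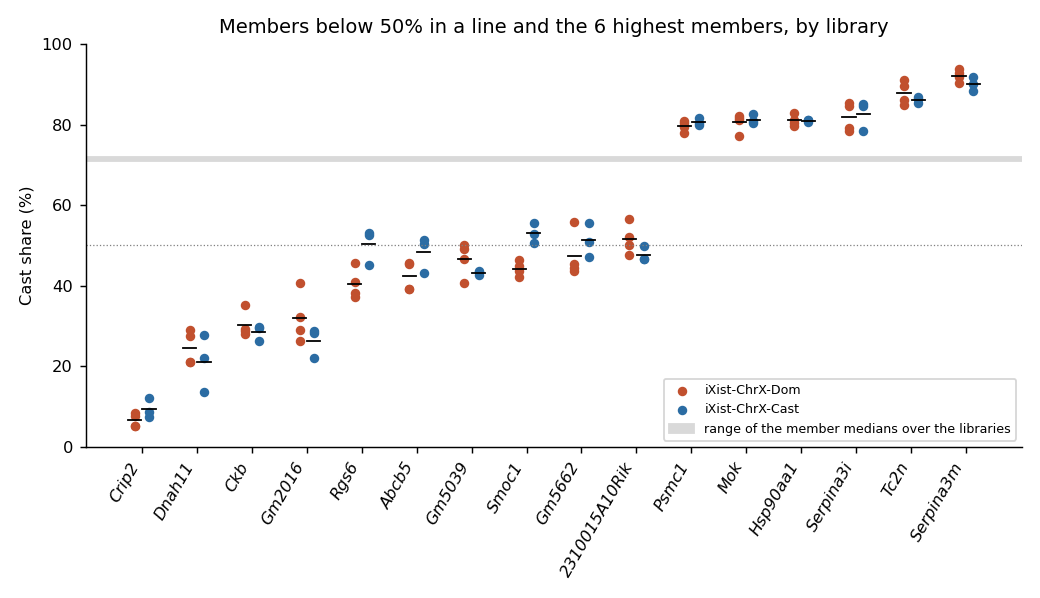
Cast share (percent) in each library of the 10 members below 50% in at least 1 line and of the 6 highest members, ordered by their mean over the 7 libraries. Points are libraries (4 of iXist-ChrX-Dom, 3 of iXist-ChrX-Cast), short lines the mean of a line and the grey band the range of the members' median over libraries (71.0% to 71.9%); Crip2, Dnah11, Ckb and Gm2016 stay below 50% in all 7 libraries.

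The members were read in groups of like function, with 121 of the 176 in 8 gene lists. Every list had a median share between 69.4% and 73.8% in each line, beside 71.3% and 71.5% over all members. The lists of RNA processing (19 members), transcription and chromatin (15), DNA repair and chromosome segregation (10), protein folding, degradation and translation (8), and cytoskeleton and membrane trafficking (24) held no exception below 50%. The list of kinases, phosphatases and signalling (19) held Rgs6, that of metabolism and mitochondria (17) held Ckb, and that of secreted, adhesion and membrane proteins (9) held Smoc1 and Abcb5. The other exceptions, Crip2, Dnah11, Gm2016, Gm5039, Gm5662 and 2310015A10Rik, were in none of the lists. All 176 members held 10 exceptions, so lists of 8 to 24 members would hold few at that rate.

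The 3 most deeply read members of each list are given next, with their spread over libraries. Among RNA processing genes, Rbm25, a splicing regulator and the member with the most fragments (17373 to 27893 allelic fragments per library), had 70.8% ± 0.409 (SD, n = 4) and 72.7% ± 0.412 (SD, n = 3). Papola, the nuclear poly(A) polymerase, had 71.5% ± 0.833 and 71.7% ± 0.658. Dicer1, which cuts microRNA precursors, was lower at 67.9% ± 0.638 and 67.8% ± 0.923.

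Among genes of transcription and chromatin, the cell cycle repressor subunit gene Lin52 had 73.6% ± 1.39 and 74.1% ± 1.49, and the zinc finger gene Zfp386 had 76.7% ± 1.50 and 75.6% ± 0.442. Of DNA repair and chromosome segregation, the condensin II subunit gene Ncapg2 had 74.7% ± 0.710 and 74.9% ± 0.702, and the chromatin kinase gene Vrk1 had 74.9% ± 0.774 and 73.7% ± 0.748. The dioxygenase gene Alkbh1 was lower at 65.1% ± 1.44 and 64.6% ± 0.788, and part of its span is shared with Nrp on the same strand, where the counting left fragments out.

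Among signalling genes, Sipa1l1, which codes for a Rap GTPase-activating protein, had 72.6% ± 0.911 and 72.1% ± 0.949, and the phosphatase 4 subunit gene Smek1 had 74.7% ± 1.27 and 74.8% ± 0.399. Eif5, a translation initiation factor gene, was among the lower members at 59.7% ± 4.13 and 61.8% ± 0.938, and Ubr7, of the ubiquitin system, had 68.2% ± 1.11 and 68.6% ± 2.23. Replicate 2 of iXist-ChrX-Dom had an Eif5 share of 53.6%, and the other 6 libraries were at 60.8% to 62.8%.

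Of the cytoskeleton and membrane trafficking list, the cytoplasmic dynein heavy chain gene Dync1h1 had 72.3% ± 1.11 and 72.2% ± 0.473, the centriole gene Cep128 70.3% ± 0.587 and 70.1% ± 0.487, and the microtubule-binding gene Eml5 74.01% ± 1.199 and 73.9% ± 0.224. Of the metabolism and mitochondria list, whose lowest member was Ckb, Gstz1, of tyrosine breakdown, had 76.1% ± 1.85 and 76.1% ± 2.42, Dlst, of the citric acid cycle, 73.6% ± 1.35 and 75.6% ± 1.70, and the lysosomal galactosylceramidase gene Galc 75.3% ± 0.674 and 75.0% ± 1.34. Of membrane proteins, the endocytic adaptor gene Ston2 had 63.5% ± 1.24 and 64.8% ± 0.991, the adhesion gene Flrt2 80.5% ± 2.04 and 77.8% ± 2.25, and the secretory vesicle gene Ptprn2 71.1% ± 0.816 and 71.0% ± 0.584.

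The next question was whether any member's share differed between the lines. edgeR's quasi-likelihood test on the allelic counts called 18.7% of 8899 autosomal genes at an adjusted p under 0.05 (Benjamini-Hochberg), 8.28% with a higher and 10.4% with a lower Cast share in iXist-ChrX-Dom, and most of these calls (1349 of 1665) lay on chromosomes 1, 5, 8 and 14. It called 6 of the 176 members (3.41%), 2 higher and 4 lower. This is below the share of all genes and close to that of the balanced autosomes (4.69% of 6435 genes) and of chromosome 12 before 75 Mb (2.87% of 174). At an unadjusted p under 0.05 there were 16 members, against 26.3% of all genes, and DESeq2 called 2 members and 14.1% of all genes. edgeR called 2 members without iXist-ChrX-Dom replicate 3 (17.5% of all genes), 3 without iXist-ChrX-Dom replicate 4 (17.6%) and 2 without iXist-ChrX-Cast replicate 1 (15.0%). The median log2 difference of the Cast to Dom odds, iXist-ChrX-Dom minus iXist-ChrX-Cast, was -0.0077 over the members and -0.0026 over all genes tested.

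Smoc1, which codes for a secreted calcium-binding matrix protein that limits BMP signalling (chr12:81026807-81186414, + strand), had a lower share in iXist-ChrX-Dom. It was 46.4%, 44.8%, 43.7% and 42.1% there and 55.6%, 50.7% and 52.8% in iXist-ChrX-Cast, and the lines did not overlap. The log2 difference of the odds was -0.50 (SE 0.12, edgeR adjusted p = 0.00296). Both values were well below the median of the members, and Smoc1 lies between Srsf5 at 78.6% and Cox16 at 69.0%.

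Rgs6, a regulator of G protein signalling (chr12:82617037-83158813, + strand), also had a lower share in iXist-ChrX-Dom, at 45.7%, 40.9%, 38.2% and 37.2%, against 52.6%, 45.1% and 53.0% in iXist-ChrX-Cast. The lines overlapped at 1 library of each, and the log2 difference was -0.62 (SE 0.19, edgeR adjusted p = 0.0271). It had 82 to 308 allelic fragments per library.

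The other 4 called members had mean shares above 70% in both lines. Itpk1, a kinase of inositol phosphates (chr12:102568582-102704869), had 80.5%, 81.4%, 80.5% and 79.0% in iXist-ChrX-Dom versus 78.5%, 77.9% and 76.6% in iXist-ChrX-Cast, with a log2 difference of 0.24 (SE 0.064, edgeR adjusted p = 0.0105). Foxn3, a forkhead transcription factor gene (chr12:99195093-99450074), had 73.9% against 71.4% and a difference of 0.17 (SE 0.059, edgeR adjusted p = 0.0482). Neither pair of lines overlapped.

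Rbm25 (chr12:83632233-83683123) was lower in iXist-ChrX-Dom by under 2 points, with 70.3% to 71.2% against 72.2% to 72.9% and a log2 difference of -0.13 (SE 0.044, edgeR adjusted p = 0.0365). The long non-coding RNA gene Gm805 (chr12:86169340-86195102) had 71.7% to 76.9% against 79.7% to 90.0% in 80 to 153 fragments, with -0.82 (SE 0.27, edgeR adjusted p = 0.0388). The lines did not overlap for either gene. Of the 6 members, Smoc1 was called whichever single library was left out, and Itpk1 lost its call without iXist-ChrX-Cast replicate 3 (0.19, edgeR adjusted p = 0.0551). Rgs6 was called in 3 of the 7 such fits, Gm805 in 3, Rbm25 in 2 and Foxn3 in 1, each time in the same direction. Gm805 moved most, to -1.25 without iXist-ChrX-Cast replicate 3. Within replicates 1 and 2 alone, 5 of the 6 were called, Smoc1 at -0.43 and Gm805 at -1.11 among them, and Rgs6 was not (-0.38, edgeR adjusted p = 0.391). That fit called 9 members and 1855 of 9063 genes, and its libraries are a part of the 7, so it is no independent test.

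**Figure D4:**
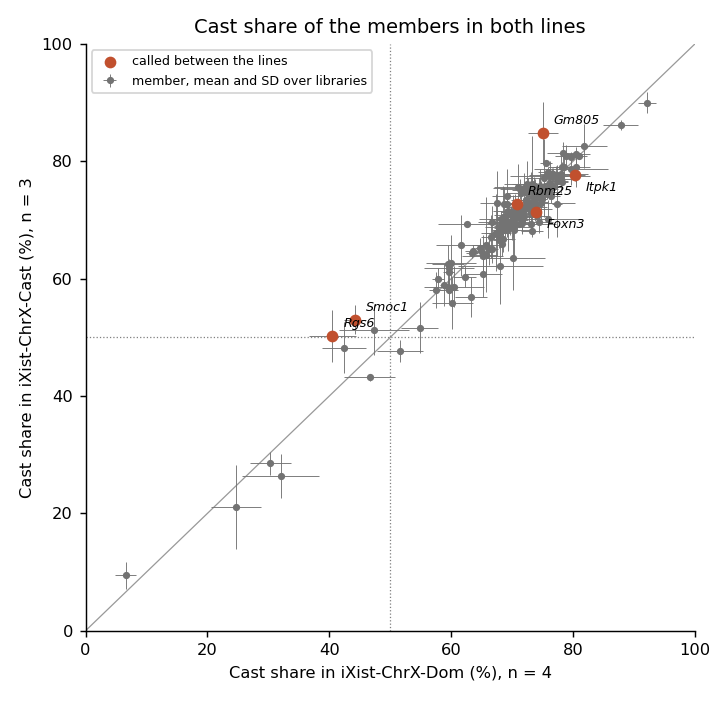
Mean Cast share (percent) of each of the 176 members in iXist-ChrX-Dom (horizontal, n = 4) against iXist-ChrX-Cast (vertical, n = 3), with SD over libraries as bars. The grey diagonal marks equal shares and the dotted lines 50%; the 6 members called between the lines are coloured and named, and 164 members lie within 5 points of the diagonal.

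Last, the total amount of RNA of each member was compared between the lines. In bulk samples fewer cells that make an RNA and less RNA per cell cannot be told apart. edgeR on the total counts called 2.92% of 15186 genes and 1 member of 176, Smoc1. At an unadjusted p under 0.05 there were 14 members (7.95%, against 17.4% of all genes), and without iXist-ChrX-Cast replicate 3 edgeR called 8 (4.55%, against 7.84%). The median log2 difference over the members was 0.049, against -0.0028 over all genes tested. Same-numbered libraries of the lines deviated together in total counts (r = 0.275 to 0.466). Libraries of unlike number did so as highly within replicates 1 and 2 and within the higher-numbered ones (r = 0.323 to 0.505). Between replicates 1 and 2 of 1 line and the higher-numbered ones of the other, r was negative (-0.503 to -0.272). The libraries thus grouped by these sets, and the number as a pairing is uncertain. With the replicate number as a block edgeR called 11.8% of the genes and 5 of the members. These were Smoc1, Rgs6, Zfyve1, Abcd4 and Gm5662, all higher in iXist-ChrX-Dom. Replicates 1 and 2 alone gave 10 members and 11% of all genes, with 4 of these 5 members among them (not Gm5662). A covariate that sets replicates 1 and 2 apart gave 14 members and 2398 of 15186 genes, with these 5 members among them.

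Smoc1 had 82.2, 75.2, 78.2 and 91.4 CPM in total counts in iXist-ChrX-Dom versus 24.9, 19.8 and 29.2 in iXist-ChrX-Cast. The lines were far apart, with a log2 difference of 1.71 (SE 0.14, edgeR adjusted p = 0.000663) and 1.66 with the block (SE 0.11, edgeR adjusted p = 1.73e-11). Within replicates 1 and 2 alone it was 1.76 (edgeR adjusted p = 2.55e-05). Both alleles were higher, the Cast-assigned fragments 2.78 times (22.3 ± 1.94 against 8.04 ± 2.11 CPM) and the Dom-assigned fragments 3.99 times (28.1 ± 3.34 against 7.06 ± 1.58 CPM). The neural precursor markers summed to 45.6, 40.85, 23.4 and 21.2 CPM in iXist-ChrX-Dom versus 19.3, 21.8 and 15.6 in iXist-ChrX-Cast. Nearly all of this was Nes and Pax6, while Sox1 was at 0 in every library and Fabp7 and Olig2 reached at most 0.1645. The feeder markers summed to 55.5 to 72.9 and 53.8 to 59.7, of which Fbn1 alone gave 30.45 to 40.4 over the libraries. The part of these markers in the Smoc1 result was not tested.

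Rgs6 had 15.4, 17.9, 20.8 and 22.7 CPM in total counts in iXist-ChrX-Dom versus 11.96, 7.02 and 11.7 in iXist-ChrX-Cast. The lines did not overlap, and the difference passed the test with the block (0.82, SE 0.16, edgeR adjusted p = 0.00113) but not without it (0.89, SE 0.22, edgeR adjusted p = 0.0559). As for Smoc1, the Dom-assigned level differed more between the lines than the Cast-assigned one, 2.36 times against 1.50 times.

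Zfyve1, which codes for a lipid-binding FYVE domain protein (chr12:83546940-83597147), had 110 ± 19.3 CPM against 75.5 ± 20.1, and the lines overlapped. Abcd4, a gene of vitamin B12 export from lysosomes (chr12:84602530-84617466), had 38.0 ± 3.83 against 26.7 ± 6.57, and Gm5662 (chr12:88270634-88274497) 21.1 ± 2.88 against 15.1 ± 1.27. With the block, the log2 differences were 0.43 (edgeR adjusted p = 0.00677), 0.47 (edgeR adjusted p = 0.00818) and 0.44 (edgeR adjusted p = 0.0416). Without the block their adjusted p were 0.148, 0.129 and 0.129. The Cast shares of these 3 genes were not called between the lines.

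Itpk1, Rbm25, Gm805 and Foxn3 were not called for total counts. Itpk1 had 209 to 456 CPM in iXist-ChrX-Dom versus 262 to 489 in iXist-ChrX-Cast, with replicates 3 and 4 of iXist-ChrX-Dom and replicate 3 of iXist-ChrX-Cast the highest. Its Cast-assigned level was 0.979 times and its Dom-assigned level 0.834 times that of the other line, so its share differed while the totals overlapped.

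**Figure D5:**
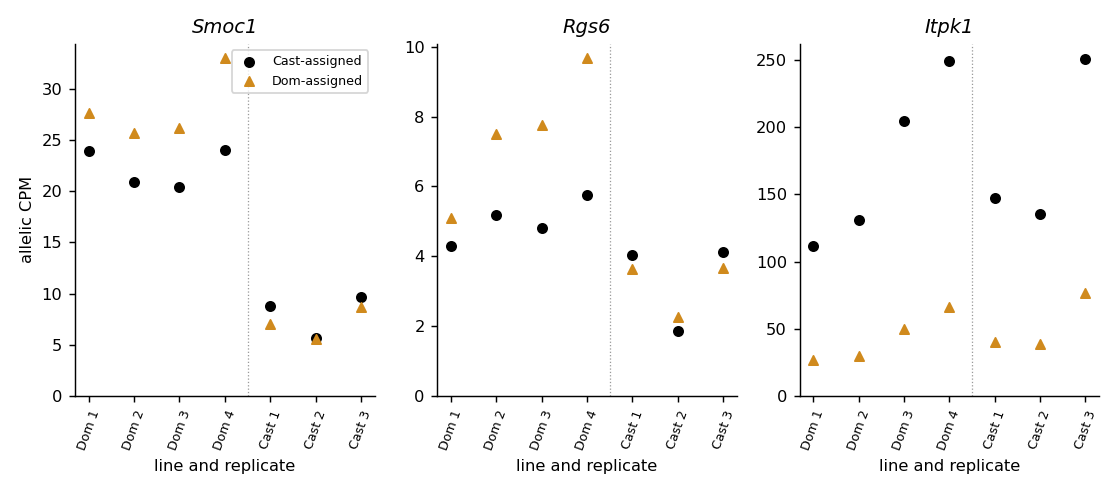
Cast-assigned (circles) and Dom-assigned (triangles) CPM of Smoc1, Rgs6 and Itpk1 in each library, with the 4 libraries of iXist-ChrX-Dom left of the dotted line and the 3 of iXist-ChrX-Cast right of it. Both alleles of Smoc1 are higher in all 4 libraries of iXist-ChrX-Dom, and the Dom-assigned level exceeds the Cast-assigned one there.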

How the data were processed

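Chromatin-associated RNA was measured in 4 libraries of iXist-ChrX-Dom and 3 of iXist-ChrX-Cast, grouped by the line in the labels. The authors discarded reads that Bowtie2 2.3.2 placed on ribosomal RNA, aligned the others uniquely to polymorphism-masked mm10 (STAR 2.4.2a), split them by parental genome with SNPsplit, and counted fragments by strand over whole transcripts (featureCounts 1.5.2). The deposited files hold whole-number counts per gene of all fragments, of Cast-assigned and of Dom-assigned ones. Per the file headers the counting used no option for fragments that overlap several genes of a strand, which featureCounts then leaves out, and 3 members have such an overlap. The deposited ratio tables give the fraction of allelic fragments from the Xist-expressing X chromosome. They hold no chromosome 12 gene and served to check which column is Cast.

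The Cast share was Cast over Cast plus Dom fragments, given per library and as mean ± SD over libraries. Log2 odds used a pseudocount of 0.5. CPM were counts over the library's total. Differences are iXist-ChrX-Dom minus iXist-ChrX-Cast, tested for shares and totals in R 4.3.3 by edgeR 4.0.16 (quasi-likelihood F test, two-sided, Benjamini-Hochberg adjustment over all genes tested, threshold 0.05). The share test used a term per library and autosomal genes with 50 allelic fragments in every library, and the total test used filterByExpr and TMM scaling. On simulated data with 200 genes changed by a log2 difference of 1, edgeR found 72.5% of them among 15030 genes for total counts (7.64% of calls false) and 92% among 8899 genes for shares (3.66% false). The simulated libraries were drawn independently, with no difference between replicates 1 and 2 and the higher-numbered ones. The planted size was also larger than any called share difference of a member. These rates therefore do not carry over to the tests reported here. Alternative fits used DESeq2 1.42.0 and limma 3.58.1, and the descriptions used scipy 1.17.1, pandas 2.3.3 and numpy 2.4.6 in Python 3.11.15, with plots by matplotlib 3.10.9. Alternatives were other depth and start limits, tools, scalings and filters, a correction for allele bias, leaving out overlaps or single libraries, replicates 1 and 2 only, the replicate number as a block, and a covariate for the sample set. That set separates replicates 1 and 2 from higher-numbered ones, since their file names are built differently. No batch is given in the labels.

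Replicate numbers are in the titles. The deviations of same-numbered libraries from their line's mean were correlated at r = 0.329, 0.275 and 0.466 for total counts. For log2 odds they were correlated at 0.056, 0.032 and 0.076. Neither main fit used the number as a block, which entered alternative fits only. Libraries of unlike number in the same set correlated as highly in total counts (r = 0.323 to 0.505). Replicate 4 of iXist-ChrX-Dom has no partner. Replicates of a line differed by more than sampling noise. The chi-square per gene was 6.51 to 14.8 within a set and 23.6 to 39.9 between sets. The members and gene lists were chosen with earlier results of these data known. The text names every member below 50%, the 6 highest, the called members, those at the limits and the 3 deepest of each list. Gene types and names came from RefSeq (GRCm38.p6) and copies from GENCODE vM21.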

Additional observations from a re-analysis of the deposited data

Results flagged for a closer look

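The 6 members whose Cast share differed between the lines by the edgeR test are listed for a closer look, with their log2 difference of the odds, iXist-ChrX-Dom minus iXist-ChrX-Cast: Smoc1 at -0.50, Rgs6 at -0.62, Rbm25 at -0.13, Gm805 at -0.82, Foxn3 at 0.17 and Itpk1 at 0.24. Each of these but Smoc1 lost its call when some single library was left out, Itpk1 in 1 of 7 such fits and Rgs6, Rbm25, Gm805 and Foxn3 in more, as given above.

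Single libraries of iXist-ChrX-Dom lay far from the other three in 3 of 52 values examined, and chance alone gives about 1 in 20. The Cast share of Ckb was 35.3% in replicate 2 against 28.0% to 29.2% in the others. That of Gm5662 was 55.8% in replicate 3 against 43.6% to 45.4%. That of Zfp386 was 74.5% in replicate 4 against 77.3% to 77.7%.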

How the results depend on the processing

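Over 122 alternative values of the 9 main results, 96 kept their level. The median Cast share of the members moved by more than the spread between libraries with the allele bias correction, to 73.8% (iXist-ChrX-Dom) and 74.1% (iXist-ChrX-Cast), and in the former to 71.9% with a minimum of 200 allelic fragments. That minimum left 3 and 2 members below 50% in these lines, because it removed most of the exceptions, which are shallow. Depth limits such genes: a member with 51 allelic fragments has an interval that reaches up to 12.9 points to either side. Leaving out a library gave medians of 71.2% to 71.5% and 71.3% to 71.8%.

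For Cast shares, DESeq2 called 2 members and 1256 of 8899 genes, and leaving out 1 library gave 2 to 6 members and 1344 to 1832 genes. The replicate block gave 6 members and 1728 genes. Of the 6 members, 3 were shared with those called without it (Smoc1, Itpk1 and Rbm25), and the others were Abcb5, Ccdc85c and Gm2016.

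For total counts, DESeq2 called 4 of the 176 members and 1094 of 15186 genes. The fit with no expression filter called 2 members and 390 of 20490 genes. With the sample set as a covariate, 14 members and 2398 of 15186 genes were called. Replicates 1 and 2 alone gave 10 members and 1685 of 15293 genes. The replicate number as a block called 5 members and 1794 of 15186 genes. Without 1 library, 1 to 8 members and 18 to 1206 genes were called, the most without iXist-ChrX-Cast replicate 3. Smoc1 was called for total counts in each of these fits, with log2 differences from 1.58 to 1.82, and for Cast share with -0.56 to -0.43 (adjusted p 0.00146 to 0.0457). No called difference changed sign. The difference of the members' median share between the lines (-0.178 points, iXist-ChrX-Dom minus iXist-ChrX-Cast), smaller than the spread between libraries, had no stable sign: it ran from -0.439 to 0.0454 and was above 0 with a minimum of 20 allelic fragments, a start limit of 85 Mb, replicates 1 and 2 only, and without iXist-ChrX-Cast replicate 3. The cause of these changes was not tested.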
